A study of Mus musculus with 23 samples.

Results

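The 40 genes described here encode enzymes of glycolysis, of pyruvate entry into mitochondria and of the tricarboxylic acid (TCA) cycle. They were taken by symbol from the deposited expression table, in which all 40 were found among 24506 genes. The list holds 16 glycolysis genes with both lactate dehydrogenases, 9 genes of the pyruvate step and 15 TCA cycle genes. Of the last, 3 (Aco1, Idh1 and Mdh1) encode cytosolic enzymes. Values were FPKM, fragments scaled to transcript length and to the total of each library, so levels of different genes can be compared per length.

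RNA was sequenced from oocytes and early embryos of mice in which Cxxc1 was intact or deleted. The gene encodes CFP1, a subunit of histone H3 lysine 4 methyltransferase complexes that binds unmethylated CpG. Germinal vesicle (GV) oocytes, arrested in meiotic prophase, came from wild-type females at 3 weeks, Cxxc1fl/fl;Zp3-Cre females at 3 weeks, wild-type females at 3 months and Cxxc1fl/fl;Gdf9-Cre females at 3 months. Embryos at the zygote and 2-cell stages were those of wild-type females and of Cxxc1fl/fl;Zp3-Cre females mated with wild-type males, without a stated female age. Each group had 3 libraries, except wild-type 2-cell embryos with 2. Both Cre transgenes act in oocytes, Gdf9-Cre from an earlier follicle stage, and the embryos of deletion females carry a paternal Cxxc1 allele. The labels do not say whether the wild-type females carried floxed alleles, how many cells went into a library, or whether replicate libraries stem from different animals. Every p-value therefore reflects no more than the spread among these samples, and that spread may be technical. Cre line and age cannot be told apart between the GV models.

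Glycolysis splits glucose into pyruvate, lactate dehydrogenase interconverts pyruvate and lactate, and the pyruvate dehydrogenase complex feeds acetyl units into the TCA cycle inside mitochondria. Mouse oocytes and the earliest embryos use pyruvate and lactate and make little use of glucose, and the capacity for glycolysis increases later in preimplantation development. Oocytes also store messenger RNA for the embryo, much of which is cleared from meiotic maturation to the 2-cell stage, when the embryonic genome is switched on.

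Cxxc1 itself was at 35.7 to 41.5 FPKM in the wild-type GV libraries and at 0.698 to 1.49 in the deletion GV libraries. Zygotes ranged over 24.0 to 30.7 with an intact gene and over 1.11 to 1.61 after deletion. The 2-cell values were 9.94 and 11.04 in wild-type embryos and 1.17, 0.626 and 4.16 in deletion embryos. All 12 oocyte markers were at 1 FPKM or more in every GV library. The whole-fragment steps of low FPKM values put the relative depth of the libraries between 0.509 and 1.49 times that of the first 3-week wild-type library, while the absolute depth is unknown, so counting error cannot be given. The third deletion 2-cell library stood apart: its 6 stroma markers summed to 136 FPKM (5 of 6 at 1 FPKM or more, Lum at 0) against 3.25 and 3.95 in the other libraries of its group, and its 19 granulosa markers to 194 (15 of 19, Ptx3 at 0) against 45.9 and 45.6. For comparisons that include its group, results that rest on it are given with and without it. In all other comparisons it adds to the spread used for the test, unless the compared groups were fitted alone.

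Changes were tested with limma on log2(FPKM + 1) over all 13776 genes at 1 FPKM or more in at least 2 libraries, in 1 fit of all 23 libraries. Fold changes are log2 differences on that scale, which understates the change of weakly expressed genes, and a gene is called higher or lower at a Benjamini-Hochberg adjusted p under 0.05. Aldoc, the brain aldolase, did not pass the filter, with at most 0.574 FPKM in any library, so 39 of the 40 genes were tested. A share of members called is to be read beside the share of all genes called in that comparison, which is printed with it for this fit. Counts under other settings stand without such a share. They show how the calls depend on the setting, not whether members moved apart from all genes.

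In wild-type oocytes Ldhb, the heart-type lactate dehydrogenase subunit, was far above every other member. It stood at 2599, 2486 and 2575 FPKM in the 3-week libraries and 2269.6, 2142 and 2199 in the 3-month libraries, where it made up 80.5% to 80.8% and 79.1% to 79.9% of the summed FPKM of the 16 glycolysis genes. Ldha, the muscle-type subunit, was at 5.35, 4.55 and 4.71 at 3 weeks and 1.64, 1.23 and 1.897 at 3 months. Pkm, pyruvate kinase, followed with 297, 290.2 and 299 FPKM at 3 weeks, ahead of Cs, citrate synthase, with 109, 109 and 113. The hexokinases, which trap glucose in the cell, were near the bottom: Hk1 stood at 1.02, 0.903 and 1.103 and Hk2 at 0.242, 0.148 and 0.192 FPKM at 3 weeks. Both lay below Pdk1 and Ldha in all 3 of these libraries.

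No member was called between wild-type GV oocytes of 3 months and 3 weeks in the fit of all 23 libraries. A fit on the compared groups alone called 9. At the adjusted threshold 2.25% of all genes were called higher and 1.7% lower at 3 months. In limma 4 of 39 members had an unadjusted p under 0.05, 1 of them positive. The share of all genes at that unadjusted threshold is not given, so the count of 4 cannot be set beside it. The median fold change was -0.09 for glycolysis, 0.05 for the pyruvate step and -0.01 for the TCA cycle, beside -0.01 for all genes. Ldha, for which the 3-month libraries lay below all 3-week libraries, had a fold change of -1.19 ± 0.39 (SE, adjusted p = 0.1). That SE draws on the spread within all 8 groups. For Ldha this includes the deletion 2-cell libraries, with 10.1, 9.46 and 43.7 FPKM, so the missing call is not a measure of the GV libraries alone.

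**Figure D1:**
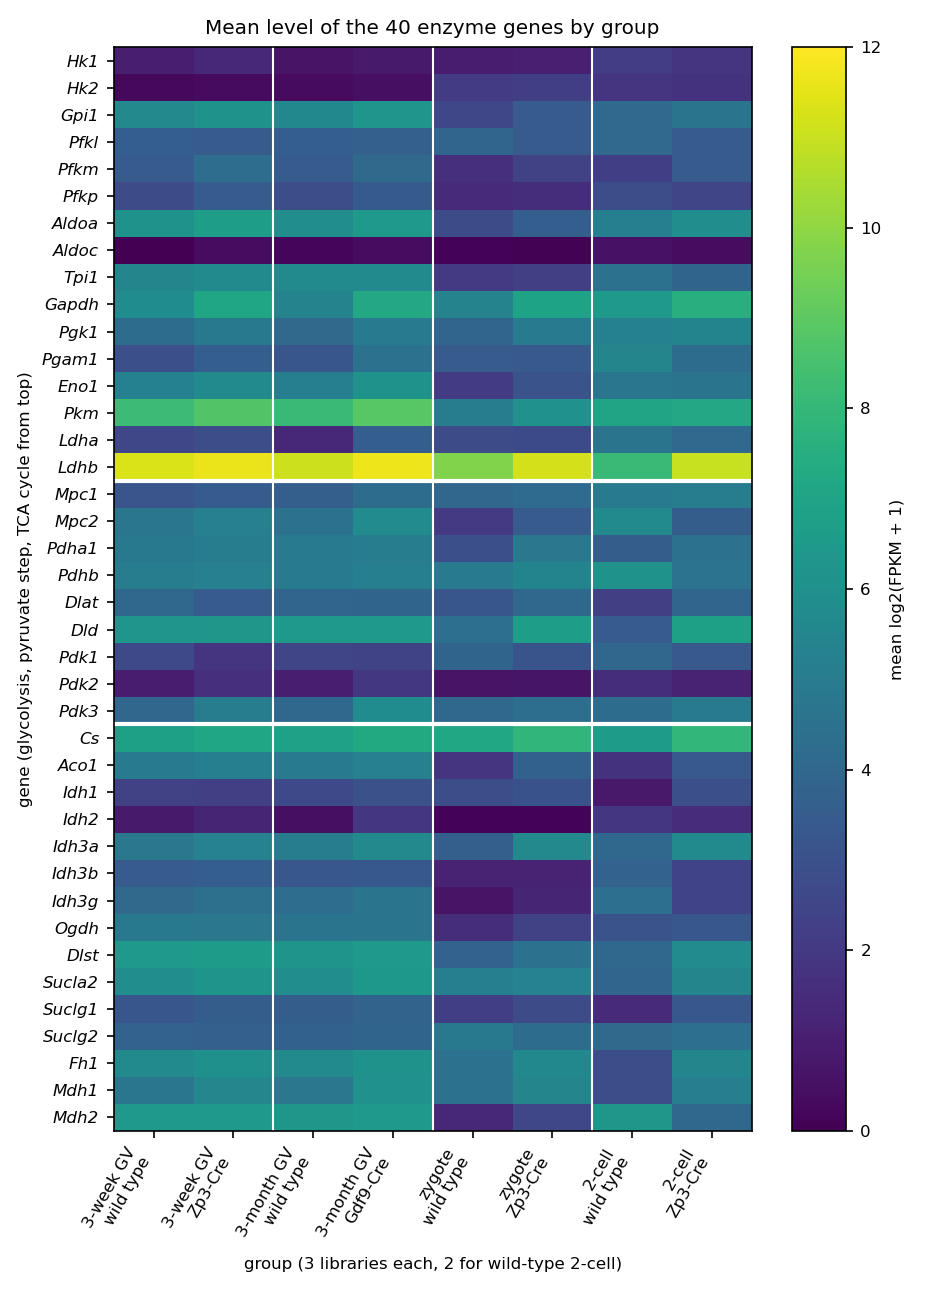
Mean log2(FPKM + 1) of the 40 genes (rows, in the order glycolysis, pyruvate step and TCA cycle) in the 8 groups (columns, 3 libraries each and 2 for wild-type 2-cell embryos). Ldhb is the brightest row in every group, and the wild-type zygote column is darker than the GV columns for Aldoa, Tpi1, Idh3g and Mdh2.

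The promoters of 6 members are shown because these genes carry the main contrasts: Gapdh and Pdk3 were higher in both deletion oocyte groups, Dld and Ldhb were higher in deletion zygotes and 2-cell embryos, and Mdh2 and Mpc2 were lower in deletion 2-cell embryos. Each line gives the 200 bases upstream of 1 RefSeq start (GRCm38.p6), 5′ to 3′ on the gene's strand, with every CG dinucleotide in capitals, since CFP1 binds unmethylated CpG. For Gapdh, on the minus strand, that start lies inside the RefSeq gene span, which runs to 125166467.
Gapdh (chr6:125165774-125165973, minus strand): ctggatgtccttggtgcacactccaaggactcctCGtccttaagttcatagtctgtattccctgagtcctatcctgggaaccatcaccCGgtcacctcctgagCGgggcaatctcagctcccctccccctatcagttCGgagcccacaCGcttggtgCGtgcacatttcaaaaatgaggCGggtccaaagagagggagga
Pdk3 (chrX:93832151-93832350, minus strand): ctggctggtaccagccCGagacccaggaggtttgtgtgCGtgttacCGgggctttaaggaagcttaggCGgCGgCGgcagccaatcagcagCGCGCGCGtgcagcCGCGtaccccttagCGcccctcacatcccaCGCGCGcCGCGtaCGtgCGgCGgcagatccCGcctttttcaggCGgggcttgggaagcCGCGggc
Dld (chr12:31351472-31351671, minus strand): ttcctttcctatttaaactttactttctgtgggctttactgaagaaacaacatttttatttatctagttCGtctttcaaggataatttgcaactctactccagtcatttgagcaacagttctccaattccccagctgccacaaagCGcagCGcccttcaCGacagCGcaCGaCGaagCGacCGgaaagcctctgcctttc
Ldhb (chr6:142507958-142508157, minus strand): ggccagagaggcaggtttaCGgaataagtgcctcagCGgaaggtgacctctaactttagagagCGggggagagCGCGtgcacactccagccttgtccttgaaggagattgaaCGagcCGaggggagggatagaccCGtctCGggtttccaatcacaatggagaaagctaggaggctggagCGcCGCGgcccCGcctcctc
Mdh2 (chr5:135778449-135778648, plus strand): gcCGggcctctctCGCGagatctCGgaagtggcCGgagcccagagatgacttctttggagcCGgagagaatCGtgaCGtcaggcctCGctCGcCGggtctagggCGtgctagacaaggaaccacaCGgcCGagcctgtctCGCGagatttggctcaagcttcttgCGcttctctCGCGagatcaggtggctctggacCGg
Mpc2 (chr1:165461060-165461259, plus strand): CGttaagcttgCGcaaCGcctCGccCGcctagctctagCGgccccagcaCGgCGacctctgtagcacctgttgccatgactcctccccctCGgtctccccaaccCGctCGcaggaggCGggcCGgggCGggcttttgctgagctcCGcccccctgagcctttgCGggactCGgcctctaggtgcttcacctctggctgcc
Over the window of 300 bases from 250 upstream to 50 downstream, the motif CG (its own reverse complement) was counted on 1 strand. The 39 members with a RefSeq entry held a median of 21 CG, from 0 in Aldoa to 39 in Mpc1. The median was 20 for the 10388 tested genes with an entry and 7 for all 27025 promoters. At least 1 CG was found in 97.4% of the members' windows, in 98.9% of those of tested genes and in 94.2% of all. The glycolysis genes had a median of 18.5 and included the CG-poor windows of Aldoa, Hk1 (1) and Pfkm (4), whereas none of the 9 pyruvate-step genes was under 18 and none of the 14 TCA genes under 13. Only 1 start per gene was counted, the first listed. Aldoa has 3 listed starts, Hk1 2 and Pfkm 4, so their low counts hold for the start used and not for the gene. Of the genes printed, Pdk3 held 35 CG in its window, Mdh2 27, Mpc2 24, Dld 18, Ldhb 17 and Gapdh 12. A CG count is a description of the letters and says nothing of binding or methylation in these cells.

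From 3-week GV oocytes to zygotes of wild-type females, most members were lower, among them enzymes of glycolysis and single subunits of TCA enzymes. Of 39 members, 24 were called lower and 6 higher, while 50.7% of all genes were called lower and 19.4% higher. Glycolysis counted 10 lower and 2 higher (median fold change -1.33), the pyruvate step 4 lower and 2 higher (-0.33), and the TCA cycle 10 lower and 2 higher (-1.21), beside a median of -0.47 for all genes. FPKM is relative to the library total, and the scaling decides part of this split: 17 members were lower and 13 higher under median-of-ratios scaling, and 17 lower and 15 higher under quantile normalization. The shares of all genes called under these scalings are not given.

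Mdh2, the mitochondrial malate dehydrogenase, had 91.1, 88.4 and 90.6 FPKM in 3-week GV oocytes and 1.02, 1.61 and 2.01 in zygotes, a fold change of -5.18 ± 0.26 (SE, adjusted p = 5.39e-13). The groups did not overlap, and the zygote mean was 1.72% of the GV mean. Idh3g, a regulatory subunit of the NAD-dependent isocitrate dehydrogenase, had 15.9, 17.7 and 17.4 in GV oocytes and 0.653, 0.461 and 0.591 in zygotes (-3.52 ± 0.32 SE, adjusted p = 4.26e-09). Idh3a, the catalytic subunit of the same enzyme, had a mean of 41.3% of the GV level in zygotes against 3.34% for Idh3g, so that the FPKM ratio of Idh3a to Idh3g moved from 1.43 to 1.72 in GV oocytes to 16.3 to 28.5 in zygotes.

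In glycolysis Tpi1, triosephosphate isomerase, had 47.1, 42.7 and 44.8 FPKM in GV oocytes and 3.96, 1.86 and 4.06 in zygotes (-3.46 ± 0.32 SE, adjusted p = 5.21e-09). Aldoa, the main aldolase, had 76.6, 67.3 and 68.9 and then 6.32, 3.79 and 7.33 (-3.44 ± 0.19 SE, adjusted p = 1.70e-12). Ldhb fell less, to 33.5% of its GV mean. The neighbouring steps were not all affected alike: Gapdh stood at 72.3% and Pgk1 at 77.3% of the GV mean, and the direction of both turned under median-of-ratios scaling (0.43 and 0.51), that of Pgk1 also under quantile normalization (0.58). Pgam1, phosphoglycerate mutase, had 11.2, 10.5 and 8.401 FPKM in zygotes against 6.34, 5.903 and 7.498 in GV oocytes and was not called (0.54 ± 0.27 SE, adjusted p = 0.08).

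The 6 members called higher in wild-type zygotes were Hk2, Pdk1, Suclg2, Mpc1, Cs and Pfkl. Pdk1, a kinase that inhibits pyruvate dehydrogenase, had 5.25, 5.42 and 5.31 FPKM in GV oocytes and 13.1, 15.6 and 11.8 in zygotes (1.19 ± 0.20 SE, adjusted p = 2.29e-05). Every zygote library lay above every GV library. Suclg2, the GTP-forming succinyl-CoA synthetase subunit, had 10.2, 14.6 and 13.3 and then 26.8, 28.4 and 28.7 (1.10 ± 0.12 SE, adjusted p = 1.15e-07), while Sucla2, its ATP-forming counterpart, had 57.9, 57.8 and 57.2 and then 38.6, 36.5 and 30.6. Hk2 rose from 0.148 to 0.242 FPKM in GV oocytes to 2.86, 4.01 and 2.84 in zygotes (1.82 ± 0.15 SE, adjusted p = 1.18e-09), and Cs had 148, 139.97 and 151 in zygotes (0.40 ± 0.07 SE, adjusted p = 5.40e-05).

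Between the wild-type zygote and 2-cell embryo the classes went different ways. Of 15 tested glycolysis genes, 12 were called higher and 1 lower (median fold change 1.36). The TCA cycle divided into 6 higher and 7 lower (median -0.10), and the pyruvate step into 5 higher and 2 lower (0.57). In all, 23 members were higher and 10 lower, beside 44.5% and 24% of all genes and a median of 0.31. The split was 17 higher and 16 lower under quantile normalization, under which 10 glycolysis genes were higher and 4 lower.

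Several glycolysis enzymes were high again. Aldoa had 35.6 and 35.6 FPKM in the 2-cell libraries (2.46 ± 0.21 SE, adjusted p = 1.87e-09), Eno1, enolase, had 33.5 and 19.1 (2.58 ± 0.40 SE, adjusted p = 9.91e-06), and Pkm had 145 and 110.2 (1.97 ± 0.14 SE, adjusted p = 2.32e-10). None of these libraries overlapped with zygotes. Pgam1 reached 44.02 and 43.02, 661% of the 3-week GV mean, and Ldha 24.1 and 23.5, 489% of it, whereas Ldhb, the 1 glycolysis gene called lower, fell on to 301 and 259 (-1.61 ± 0.09 SE, adjusted p = 3.33e-12). Ldhb was still above Ldha, but the FPKM ratio of Ldhb to Ldha was 11.04 and 12.5 in the 2-cell libraries against 485 to 547 in 3-week GV oocytes.

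In the TCA cycle some genes that were low in zygotes were high again. Mdh2 had 101 and 62.9 FPKM (5.01 ± 0.29 SE, adjusted p = 6.65e-12) and Idh3g 22.02 and 18.5 (3.76 ± 0.36 SE, adjusted p = 1.01e-08). Idh3b, the other regulatory subunit of isocitrate dehydrogenase, moved from 1.26, 0.921 and 1.52 to 12.4 and 13.1 (2.63 ± 0.35 SE, adjusted p = 1.10e-06). In the pyruvate step Mpc2, a subunit of the carrier that brings pyruvate into mitochondria, went from 5.08, 2.399 and 2.298 to 73.3 and 37.2 (3.70 ± 0.31 SE, adjusted p = 1.30e-09), and Pdhb, the E1 beta subunit of pyruvate dehydrogenase, from 29.05, 30.8 and 29.8 to 78.4 and 60.8 (1.18 ± 0.11 SE, adjusted p = 1.06e-08). Each of these genes was without overlap between the stages.

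Other members were lower in 2-cell embryos than in zygotes. Mdh1, the cytosolic malate dehydrogenase, had 19.98, 23.6 and 22.2 FPKM in zygotes and 5.798 and 6.48 in 2-cell embryos (-1.68 ± 0.12 SE, adjusted p = 2.26e-10). Fh1, fumarase, had 24.1, 21.3 and 17.98 and then 7.29 and 4.98 (-1.64 ± 0.18 SE, adjusted p = 8.79e-08), and Sucla2 had 38.6, 36.5 and 30.6 and then 12.1 and 16.5 (-1.25 ± 0.11 SE, adjusted p = 5.91e-09). The exchange turned the FPKM ratio of Mdh2 to Mdh1 from 0.0513 to 0.0906 in zygotes to 9.71 and 17.4 in 2-cell embryos. Dld, the E3 subunit shared by the pyruvate and oxoglutarate dehydrogenases, fell at both steps, with 73.8, 86.4 and 76.4 in GV oocytes, 20.2, 19.2 and 20.5 in zygotes and 9.36 and 10.8 in 2-cell embryos, and Dlat, the E2 subunit, had 3.52 and 4.33 in 2-cell embryos against 8.63, 7.09 and 9.55 in zygotes. The sum over the 15 glycolysis genes other than Ldhb, divided by the TCA sum, was 1.05 to 1.13 in 3-week GV oocytes, 0.441 to 0.527 in zygotes and 1.398 to 1.58 in 2-cell embryos. Pkm made up a large part of the first sum and Cs of the second, so this ratio does not weigh the genes alike.

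**Figure D2:**
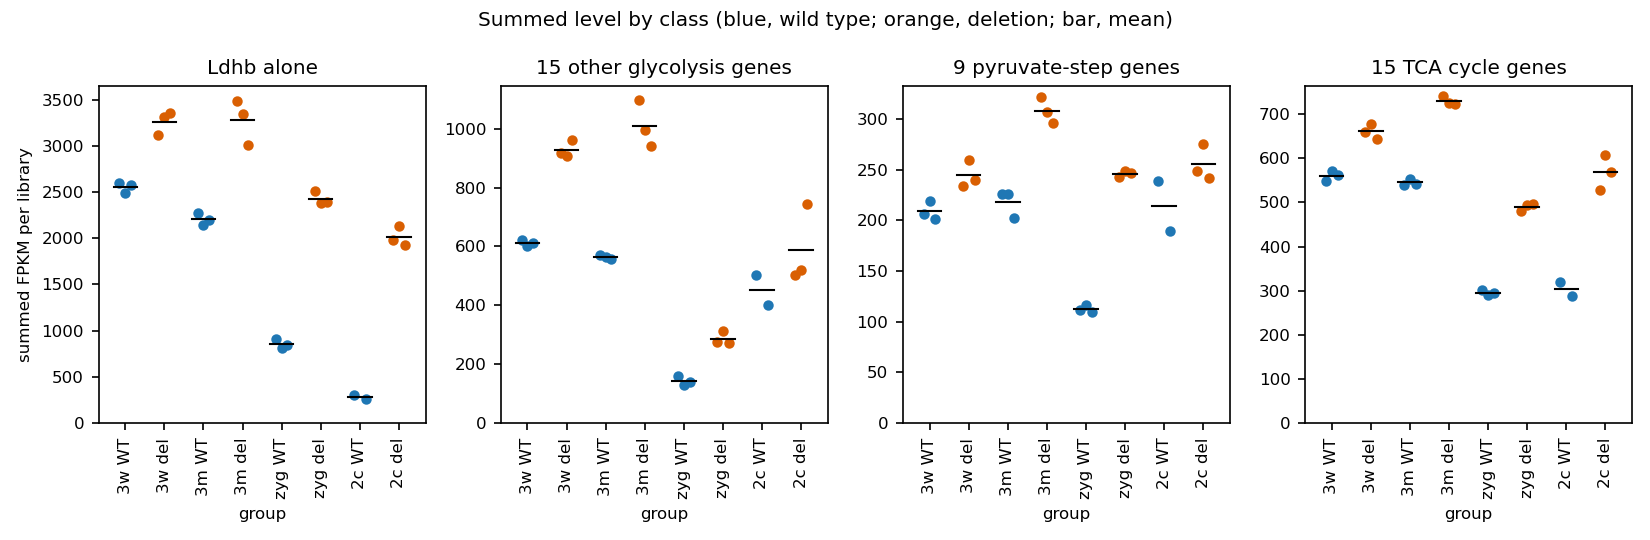
Summed FPKM per library (y axis, from 0) for Ldhb, the 15 other glycolysis genes, the 9 pyruvate-step genes and the 15 TCA genes in the 8 groups (x axis), with wild type in blue, deletion in orange and the mean as a bar. Wild-type zygotes are lowest in the sum of the 15 glycolysis genes (128 to 158) and of the pyruvate step (109 to 117), while deletion zygotes hold 271 to 312 and 243 to 249.1.

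In 3-week Zp3-Cre GV oocytes 13 of 39 members were called higher and 2 lower, beside 18.3% and 11.3% of all genes. By class, 8 of 15 glycolysis genes, 1 of 9 pyruvate-step genes and 4 of 15 TCA genes were higher, and the 2 lower genes were Pdk1 and Dlat. Median fold changes were 0.49, 0.18 and 0.24, beside 0.09 for all genes. Under median-of-ratios scaling 7 members were higher and 2 lower, with 5 of the 7 in glycolysis, and the calls of Gpi1, Aldoa, Ldhb, Cs, Idh3a and Sucla2 were lost. The 19 granulosa markers summed to 144 to 160 FPKM in these oocytes and 148 to 165 in wild type, with Ptx3 at 0. Other marker lists moved with the deletion: 6 of 12 oocyte markers were called lower, with sums of 7076 to 7897 against 9620 to 9727. The 8 oviduct markers summed to 51.7 to 59.6 against 39.4 to 43.3, the 6 stroma markers to 3.66 to 4.69 against 0.51 to 0.73, and the 8 markers of 2-cell embryos to 23.1 to 29.6 against 5.36 to 6.66. At 1 FPKM or more were 2 to 3 oviduct markers against 1 to 2, 1 stroma marker against 0 and 4 markers of 2-cell embryos against 3. Their part in the results was not tested.

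Gapdh, glyceraldehyde-3-phosphate dehydrogenase, had 57.6, 57.9 and 52.3 FPKM in wild-type and 129.9, 129 and 149 in Zp3-Cre oocytes, a fold change of 1.27 ± 0.15 (SE, adjusted p = 4.88e-06). Pfkm, the muscle-type subunit of phosphofructokinase, the committed step of glycolysis, had 10.3, 9.35 and 9.904 against 21.96, 17.7 and 15.9 (0.84 ± 0.12 SE, adjusted p = 3.93e-05). The groups did not overlap for either gene, nor for Pfkp, the platelet-type subunit, with 5.91, 6.54 and 5.47 against 9.52, 10.04 and 10.96 (0.68 ± 0.12 SE, adjusted p = 3.92e-04). Pfkl, the liver-type subunit, was not called (-0.13 ± 0.10 SE, adjusted p = 0.39), so that the FPKM ratio of Pfkm to Pfkl lay between 1.4998 and 2.304 in deletion oocytes, above the 0.894 to 0.924 of wild type. Pkm had 435, 427 and 439.6 FPKM in deletion oocytes (0.55 ± 0.13 SE, adjusted p = 0.0032), and Ldhb had 3114, 3313 and 3357 (0.35 ± 0.08 SE, adjusted p = 0.0025). Gapdh and several other glycolysis genes have processed pseudogenes, among which the authors' quantification could split reads.

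Of the pyruvate dehydrogenase kinases, which switch that complex off, Pdk3 and Pdk1 went opposite ways in 3-week oocytes. Pdk3 had 14.7, 15.7 and 13.9 FPKM in wild type and 33.1, 33.2 and 30.6 in deletion oocytes (1.08 ± 0.12 SE, adjusted p = 3.29e-06). Pdk1 had 5.25, 5.42 and 5.31 against 1.503, 1.96 and 4.498 (-0.88 ± 0.20 SE, adjusted p = 0.0026). All wild-type libraries of Pdk1 lay above all deletion libraries, of which the third was the closest. Dlat had 15.8, 14.2 and 14.99 against 12.04, 10.8 and 8.08 (-0.52 ± 0.12 SE, adjusted p = 0.0034), while Pdha1, Pdhb and Dld, the other subunits of the complex, were not called, with fold changes of 0.18, 0.13 and 0.03.

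In the TCA cycle Mdh1 stood out at 3 weeks, with 22.97, 27.01 and 26.6 FPKM in wild type and 41.9, 50.5 and 43.98 in deletion oocytes (0.81 ± 0.11 SE, adjusted p = 2.09e-05). Its mitochondrial counterpart Mdh2 had 91.1, 88.4 and 90.6 against 84.5, 86.98 and 83.1 (-0.08 ± 0.26 SE, adjusted p = 0.86). The other called members, Cs, Idh3a and Sucla2, had fold changes of 0.30, 0.49 and 0.35. Ogdh, the E1 subunit of oxoglutarate dehydrogenase, was at 27.7, 27.8 and 27.4 against 27.98, 26.7 and 24.8 and was not called (-0.06 ± 0.13 SE, adjusted p = 0.78).

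In 3-month Gdf9-Cre GV oocytes 20 of 39 members were called higher and 0 lower, beside 34.2% and 15.2% of all genes; no member had both an unadjusted p under 0.05 in limma and a negative fold change. Glycolysis counted 11 higher of 15, the pyruvate step 3 of 9 and the TCA cycle 6 of 15, with medians of 0.66, 0.22 and 0.34 beside 0.20 for all genes. Under median-of-ratios scaling these counts were 9, 3 and 2. Markers of granulosa cells moved with the deletion: 14 of 19 were at 1 FPKM or more in each Gdf9-Cre library against 6 to 8 in 3-month wild type, with sums of 185 to 285 against 141 to 148. Without Cyp19a1, Nr5a2 and Serpine2, which all oocyte groups express and which were left out after seeing the values, the sums were 63.5 to 160 against 11.5 to 16.4. Their part in the results was not tested. None of the 19 granulosa markers was at 0 in all Gdf9-Cre libraries, and Nr4a1, Has2 and Ptx3 stayed under 0.5 FPKM in each.

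Gapdh had 41.97, 42.1 and 38.7 FPKM in 3-month wild type and 177, 146 and 129 in Gdf9-Cre oocytes (1.85 ± 0.15 SE, adjusted p = 1.91e-08). Ldha had 1.64, 1.23 and 1.897 against 18.5, 10.7 and 6.68 (2.23 ± 0.39 SE, adjusted p = 1.19e-04), the largest fold change among the members here. Both were without overlap. In both the first Gdf9-Cre library was the highest, as it was for Ldhb, Mpc2 and the granulosa sum. Whether these are linked was not tested. Ldha remained small beside Ldhb, which had 3486, 3346 and 3004 in these libraries (0.57 ± 0.08 SE, adjusted p = 9.98e-06). The other glycolysis genes called higher were Pfkm (0.70), Pfkp (0.58), Pgk1 (0.83), Pgam1 (1.23), Eno1 (1.00), Pkm (0.75), Gpi1 (0.66) and Aldoa (0.62). The 4 tested glycolysis genes that were not called were Hk1 (0.25), Hk2 (0.17), Pfkl (0.09) and Tpi1 (0.04).

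Pdk3 had 15.6, 17.1 and 13.9 FPKM in wild type and 59.99, 52.6 and 54.03 in Gdf9-Cre oocytes (1.77 ± 0.12 SE, adjusted p = 2.70e-09). Mpc2 had 24.7, 22.1 and 19.3 against 67.4, 55.6 and 41.5 (1.26 ± 0.27 SE, adjusted p = 8.58e-04). The groups did not overlap for either gene. Pdk1 was not called here, with 5.17, 4.52 and 4.62 against 4.21, 5.12 and 4.02 (-0.09 ± 0.20 SE, adjusted p = 0.76), nor was Dlat (-0.03 ± 0.12 SE, adjusted p = 0.86). Mdh1 had 24.8, 28.03 and 25.6 against 63.1, 65.3 and 68.8 (1.30 ± 0.11 SE, adjusted p = 2.98e-08), with Mdh2 at 0.12, and the FPKM ratio of Mdh2 to Mdh1 was 1.27 to 1.36 in Gdf9-Cre oocytes against 2.79 to 3.33 in 3-month wild type. The other TCA genes called higher were Cs, Idh2, Idh3a, Sucla2 and Fh1; Idh2 rested on 4.42, 1.23 and 3.16 FPKM, and its call was lost without the first or the third of these libraries, without the third wild-type library, without the filter and under quantile normalization (adjusted p from 0.000184 to 0.131 over all limma alternatives).

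The difference between the Gdf9-Cre effect at 3 months and the Zp3-Cre effect at 3 weeks was called for 1 member, Pdk3, whose rise was larger by 0.70 ± 0.18 (SE, adjusted p = 0.028) in the Gdf9-Cre model; 3.2% of all genes were called higher and 1.68% lower in this difference. That call was lost in 5 of the 12 fits that leave out 1 library, namely without Gdf9-Cre replicate 1, 3-month wild-type replicate 1 or 3, or 3-week wild-type replicate 1 or 2. Ldha had the largest difference of the members, 1.89 ± 0.55 (SE, adjusted p = 0.055), and was not called. That SE also holds the spread of Ldha among the deletion 2-cell libraries. In a fit on the compared groups alone 8 members were called. A difference in the loss of Pdk1, at 0.79 ± 0.28 (SE, adjusted p = 0.12), was not called.

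**Figure D3:**
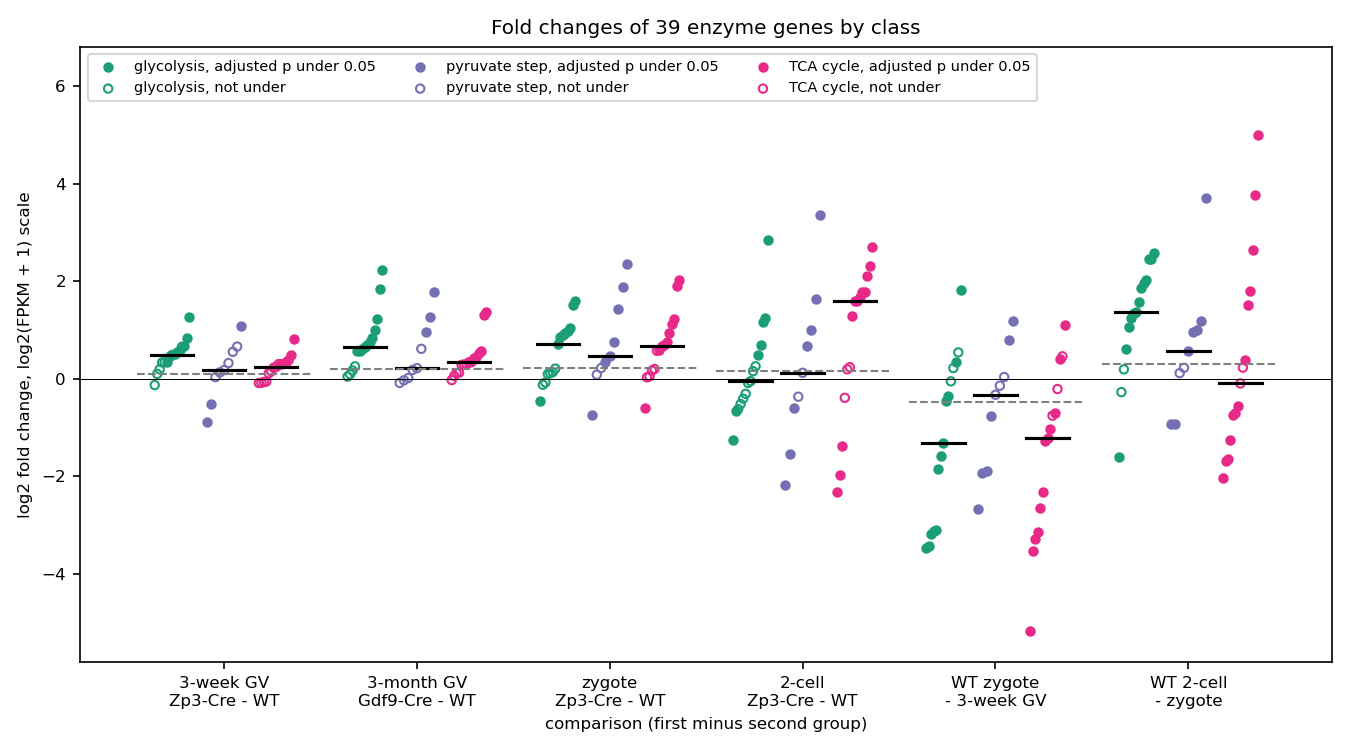
Log2 fold changes on the log2(FPKM + 1) scale (y axis) of the 39 tested genes in 6 comparisons (x axis), by class, with filled points for adjusted p under 0.05, black bars for class medians and dashed grey lines for the median of all 13776 genes. In both GV comparisons the glycolysis median (0.49 and 0.66) is the highest of the 3 classes, and in deletion 2-cell embryos the TCA median is 1.58 while the glycolysis median is -0.05. The TCA class includes the cytosolic Aco1, Idh1 and Mdh1, with fold changes of 1.58, 2.12 and 2.31 in deletion 2-cell embryos.

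In zygotes of Zp3-Cre females, against those of wild-type females, 23 of 39 members were called higher and 3 lower, beside 35.3% and 11.4% of all genes. Glycolysis counted 8 higher and 1 lower, the pyruvate step 6 higher and 1 lower, and the TCA cycle 9 higher and 1 lower, with medians of 0.71, 0.46 and 0.68 beside 0.22 for all genes. Under median-of-ratios scaling 13 members were higher and 6 lower, and under quantile normalization 13 and 5. Marker sums of oocytes and of other cells moved with the deletion. Of 12 oocyte markers 10 were called higher and 1 lower, with sums of 4207 to 4904 FPKM in deletion and 3316 to 3604 in wild-type zygotes. The 19 granulosa markers summed to 122 to 124 against 73.4 to 82.6, with 4 at 1 FPKM or more in every zygote library and Inhbb, Foxl2, Hsd17b1 and Ptx3 at 0 in all deletion zygotes. Without Cyp19a1, Nr5a2 and Serpine2, which all oocyte groups express, the granulosa sums were only 4.31 to 4.50 against 1.95 to 3.62. Of those 16 markers, 1 was at 1 FPKM or more in each zygote library. The 8 oviduct markers summed to 116 to 123 against 50.9 to 65.8, with Pax8 at 0, and the 6 stroma markers to 2.82 to 3.89 against 0.46 to 0.65, with Lum at 0. Few markers carried these sums: 3, 1 and 2 oviduct markers were at 1 FPKM or more in deletion zygotes against 2, 1 and 2 in wild type. For stroma it was 1 in each deletion library against 0. Their part in the results was not tested.

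Dld had 20.2, 19.2 and 20.5 FPKM in wild-type and 105, 102 and 112 in deletion zygotes (2.36 ± 0.08 SE, adjusted p = 1.33e-14). Pdha1, the E1 alpha subunit and the target of the kinases, had 5.34, 7.51 and 7.58 against 27.7, 27.98 and 26.3 (1.87 ± 0.10 SE, adjusted p = 1.10e-11). Neither gene had overlapping groups, and in deletion zygotes both stood near their level in deletion GV oocytes, at 132% and 87.1% of that mean, against 25.3% and 24.7% in wild type. Dlat, the E2 subunit, had 8.63, 7.09 and 9.55 against 15.1, 14.8 and 14.7 (0.76 ± 0.12 SE, adjusted p = 3.06e-05), a call that both other scalings ended. Pdhb had 29.05, 30.8 and 29.8 against 38.3, 47.7 and 38.9 (0.46 ± 0.10 SE, adjusted p = 7.92e-04), with a fold change of -0.13 under median-of-ratios scaling. The FPKM ratio of Pdha1 to Pdhb lay between 0.586 and 0.723 in deletion zygotes, above the 0.184 to 0.254 of wild type. Pdk1 had 13.1, 15.6 and 11.8 against 6.94, 7.75 and 8.14 and was lower (-0.75 ± 0.20 SE, adjusted p = 0.0043). For Pdk3 the deletion zygotes, with 20.9, 14.8 and 23.7, overlapped the wild type, with 15.1, 16.4 and 14.1; its fold change of 0.34 ± 0.12 (SE, adjusted p = 0.031) turned negative under both other scalings (-0.24 and -0.10).

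Among the TCA genes Idh3a had 11.2, 13.1 and 9.64 FPKM in wild-type and 47.7, 48.6 and 50.03 in deletion zygotes (2.02 ± 0.14 SE, adjusted p = 3.07e-10). Its partners were not called, Idh3b with a fold change of 0.05 ± 0.31 (SE, adjusted p = 0.93) and Idh3g with 0.57 ± 0.32 (SE, adjusted p = 0.16). Aco1, the cytosolic aconitase that doubles as an iron regulator, had 3.64, 1.303 and 3.33 against 11.7, 15.4 and 10.4 (1.89 ± 0.21 SE, adjusted p = 2.96e-07). Cs had 224, 239 and 241 in deletion zygotes (0.68 ± 0.07 SE, adjusted p = 2.03e-07, lost under median-of-ratios scaling), Mdh1 had 44.2, 37.4 and 46.99 (0.93 ± 0.11 SE, adjusted p = 6.93e-07), and Mdh2, though called higher, reached only 5.75, 5.93 and 3.26 (1.22 ± 0.26 SE, adjusted p = 6.29e-04), 5.87% of the deletion GV mean. Suclg2 was lower, with 26.8, 28.4 and 28.7 against 18.6, 15.6 and 20.1 (-0.61 ± 0.12 SE, adjusted p = 4.21e-04). For every gene named as called in this paragraph the groups did not overlap.

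In glycolysis Gapdh had 45.4, 35.2 and 40.7 FPKM in wild-type and 107, 139 and 123 in deletion zygotes (1.58 ± 0.15 SE, adjusted p = 3.71e-08). Ldhb had 914, 808 and 847 against 2513, 2378 and 2397 (1.505 ± 0.08 SE, adjusted p = 8.05e-12). Again the groups were apart, and Ldhb held 74.5% of its deletion GV mean against 33.5% in wild type. Pkm had 39.2, 26.6 and 30.05 against 70.8, 75.4 and 53.4 (1.04 ± 0.13 SE, adjusted p = 1.41e-06), yet this was 15.3% of the deletion GV mean, beside 10.8% in wild type. Pfkl was lower, with 13.7, 14.8 and 13.5 against 11.2, 9.695 and 9.003 (-0.45 ± 0.10 SE, adjusted p = 0.0012), and the hexokinases were not called (0.10 ± 0.25 SE, adjusted p = 0.81 for Hk1 and 0.13 ± 0.15 (SE, adjusted p = 0.52) for Hk2).

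The Zp3-Cre effect differed between zygotes and 3-week GV oocytes for 14 members, more positive in 11 and more negative in 3, beside 22.4% and 7.01% of all genes. Of the 11, 7 were TCA genes, 3 pyruvate-step genes and 1, Ldhb, a glycolysis gene. Dld (2.33 ± 0.11 SE, adjusted p = 1.45e-11), Pdha1 (1.69 ± 0.14 SE, adjusted p = 2.58e-08), Aco1 (1.67 ± 0.30 SE, adjusted p = 2.26e-04) and Idh3a (1.53 ± 0.20 SE, adjusted p = 5.02e-06) differed most. Pdk3 (-0.74 ± 0.18 SE, adjusted p = 0.003), Pfkp (-0.57 ± 0.18 SE, adjusted p = 0.019) and Suclg2 (-0.54 ± 0.18 SE, adjusted p = 0.025) were the more negative ones. The split was 8 and 6 under median-of-ratios scaling and 7 and 6 under quantile normalization.

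**Figure D4:**
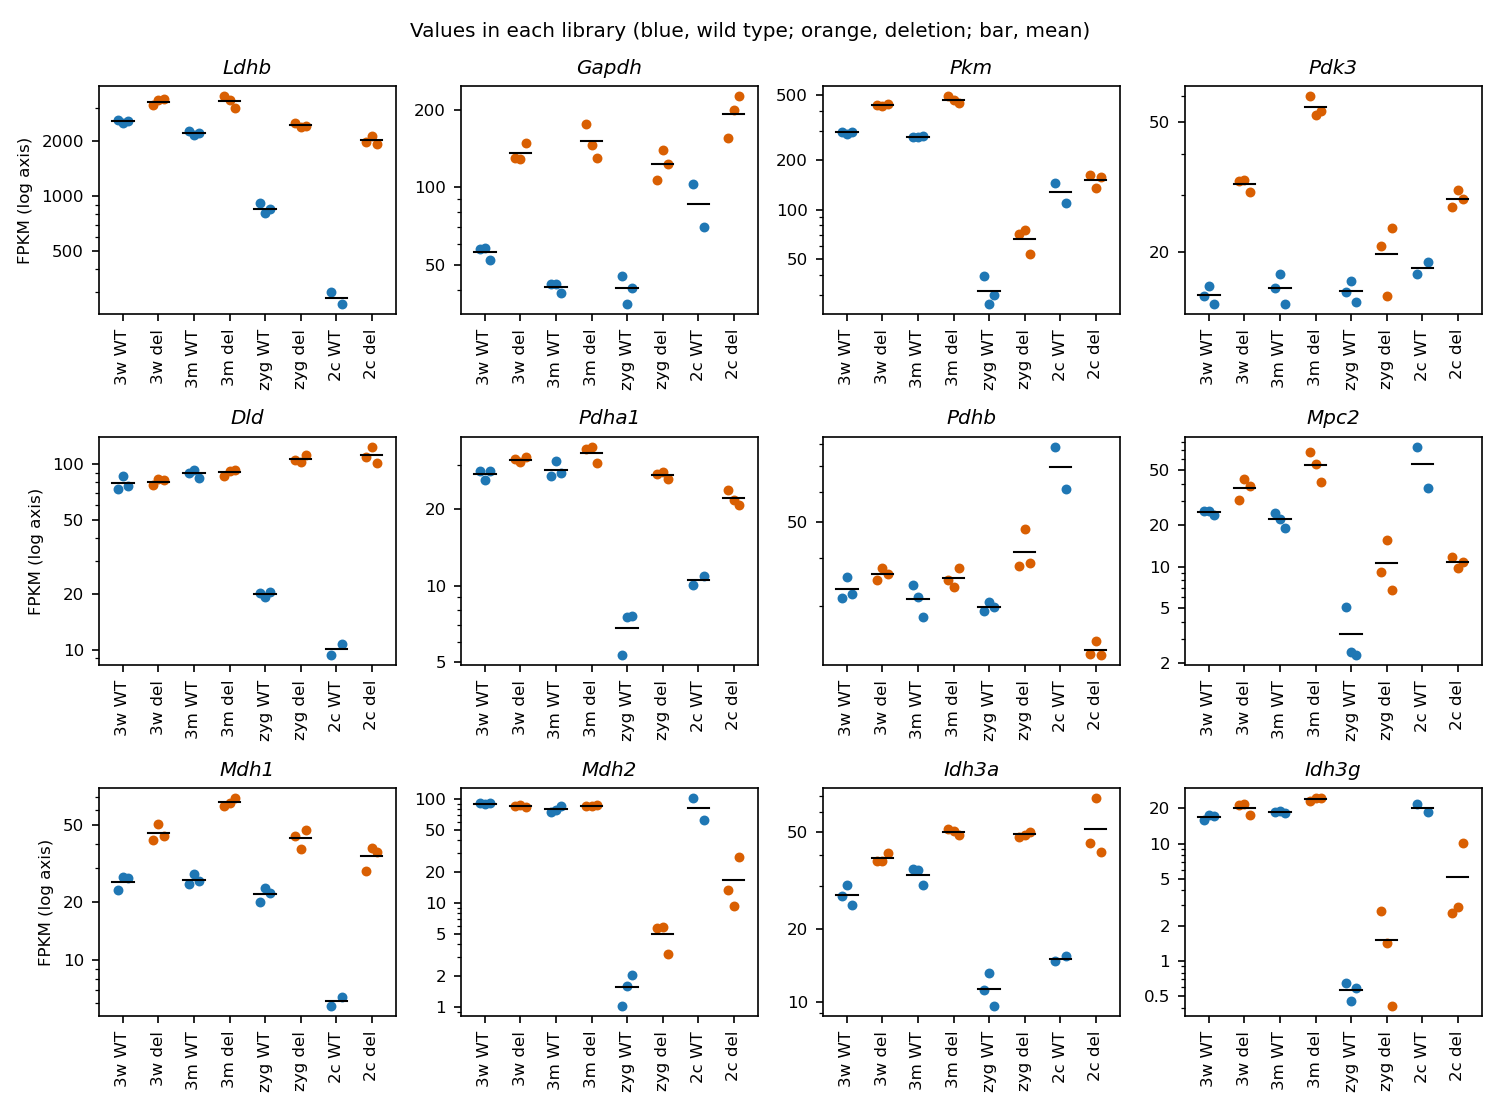
FPKM in each library (points, log axis) of 12 members in the 8 groups, with wild type in blue, deletion in orange and the group mean as a bar. Ldhb, Dld, Mdh1 and Idh3a are lower in wild-type than in deletion embryos at both stages, whereas Mdh2, Mpc2, Pdhb and Idh3g reach 18.5 FPKM or more in both wild-type 2-cell libraries and are lower than that pair in every deletion 2-cell library.

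In 2-cell embryos of Zp3-Cre females, of 39 members 18 were called higher and 8 lower, beside 37.1% and 29.4% of all genes. The TCA cycle counted 9 higher and 3 lower (median 1.58), the pyruvate step 4 and 3 (0.12) and glycolysis 5 and 2 (-0.05), beside 0.16 for all genes. The 9 higher TCA genes included the cytosolic Aco1 (1.58), Idh1 (2.12) and Mdh1 (2.31), and the value of Idh1 rested on the third deletion library. All 3 lower TCA genes, Mdh2, Idh3b and Idh3g, encode mitochondrial enzymes. The TCA median is therefore not one of mitochondrial enzymes alone. Under median-of-ratios scaling 16 members were higher and 11 lower, with glycolysis at 3 and 5. Without the third deletion library 17 were higher and 14 lower, with glycolysis at 4 and 6, the pyruvate step at 4 and 4 and the TCA cycle at 9 and 4. Stage markers moved with the deletion. All 12 oocyte markers were called higher, with sums of 2815 to 3174 FPKM against 954 to 1103 in wild type. Of 8 markers of 2-cell embryos 7 were called lower and 0 higher, with sums of 24.0 to 38.4 against 206 to 276. Their part in the results was not tested.

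Among the members higher in deletion 2-cell embryos were the E3 subunit Dld, Ldhb and TCA enzymes. Dld had 9.36 and 10.8 FPKM in wild-type and 109, 123 and 102 in deletion embryos (3.35 ± 0.09 SE, adjusted p = 1.12e-15). Ldhb had 301 and 259 against 1975, 2129 and 1925 (2.84 ± 0.09 SE, adjusted p = 4.74e-15). Fh1 had 7.29 and 4.98 against 56.2, 50.3 and 31.7 (2.70 ± 0.18 SE, adjusted p = 1.18e-10). In all of these the groups were far apart, and the third deletion library was the lowest in each. Mdh1 had 5.798 and 6.48 against 28.97, 38.3 and 36.2 (2.31 ± 0.12 SE, adjusted p = 5.85e-12), Cs had 94.8 and 103 against 226, 281 and 229.7 (1.29 ± 0.08 SE, adjusted p = 5.22e-11), and Sucla2 had 12.1 and 16.5 against 44.6, 50.04 and 40.3 (1.60 ± 0.11 SE, adjusted p = 3.05e-10). Dlst, the E2 subunit of oxoglutarate dehydrogenase, had 17.1 and 13.6 against 61.8, 57.5 and 45.5 (1.77 ± 0.14 SE, adjusted p = 1.51e-09). Idh1, the cytosolic NADP-dependent isocitrate dehydrogenase, had 0.919 and 0.599 against 1.74, 3.01 and 38.7, so its fold change of 2.12 ± 0.64 (SE, adjusted p = 0.007) rested on the third library and was 0.92 without it (adjusted p = 0.00095).

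Among the members lower in deletion 2-cell embryos were Mdh2, a subunit of the pyruvate carrier and subunits of pyruvate and isocitrate dehydrogenase. Mdh2 had 101 and 62.9 FPKM in wild-type and 13.4, 9.29 and 27.4 in deletion embryos (-2.32 ± 0.29 SE, adjusted p = 7.48e-07). Mpc2 had 73.3 and 37.2 against 11.7, 9.77 and 10.8 (-2.18 ± 0.31 SE, adjusted p = 3.18e-06). Pdhb had 78.4 and 60.8 against 22.5, 24.2 and 22.3 (-1.55 ± 0.11 SE, adjusted p = 3.67e-10). The wild-type and deletion libraries of all 3 genes were apart, and the deletion embryos held 19.7%, 28.8% and 63.2% of the deletion GV means. Idh3g had 22.02 and 18.5 against 2.57, 2.91 and 10.2 (-1.98 ± 0.36 SE, adjusted p = 6.39e-05), and Idh3b had 12.4 and 13.1 against 3.36, 2.08 and 10.03 (-1.38 ± 0.35 SE, adjusted p = 0.0017); the third deletion library was the highest in both, and the fold changes were -2.51 and -1.91 without it.

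The FPKM ratios between subunits of the same enzyme differed between wild-type and deletion embryos. In wild-type 2-cell embryos the FPKM ratio of Idh3a to Idh3g was 0.669 and 0.830, whereas the deletion libraries had 17.5, 23.6 and 4.02. The ratio of Pdha1 to Pdhb was 0.129 and 0.180 in wild-type and 0.898 to 1.06 in deletion embryos. Dld to Pdhb was 0.119 and 0.177 in wild-type and 4.58 to 5.10 in deletion embryos. Pdha1 itself had 10.1 and 10.9 against 23.9, 21.7 and 20.7 (1.01 ± 0.11 SE, adjusted p = 1.88e-07), and Dlat 3.52 and 4.33 against 15.9, 13.2 and 13.7 (1.63 ± 0.14 SE, adjusted p = 2.59e-09). In bulk samples such as these, RNA of the embryos and RNA of other cells in a library cannot be told apart.

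Some of the glycolysis calls in deletion 2-cell embryos depended on the third library, while those of Ldhb, Gapdh, Pfkm, Aldoa, Pfkl and Pgam1 did not. Gapdh had 103 and 70.1 FPKM in wild-type and 155, 199 and 226 in deletion embryos (1.16 ± 0.17 SE, adjusted p = 4.98e-06), and Pfkm 4.24 and 3.096 against 10.6, 9.72 and 9.66 (1.24 ± 0.14 SE, adjusted p = 1.13e-07), both without overlap. Pgam1 had 44.02 and 43.02 against 10.4, 16.6 and 32.03 (-1.25 ± 0.30 SE, adjusted p = 0.0011), and Pfkl 14.7 and 17.6 against 8.903, 9 and 11.6 (-0.67 ± 0.12 SE, adjusted p = 4.45e-05); both were lower. Ldha, with 24.1 and 23.5 against 10.1, 9.46 and 43.7, was not called (-0.52 ± 0.44 SE, adjusted p = 0.31), but without the third library its fold change was -1.20 (adjusted p = 0.0012). Tpi1 (-1.14, adjusted p = 0.00068), Hk1 (-0.80, adjusted p = 0.0018) and Eno1 (-0.74, adjusted p = 0.014) were likewise called lower in the limma fit without that library, as were Pdk2 and Idh2, while the call of Gpi1 as higher was lost. With all libraries, Hk1 and Tpi1 were also called lower under median-of-ratios scaling and with array weights, and Ldha with array weights. The share of the marker RNA of other cells in that library's values was not tested.

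**Figure D5:**
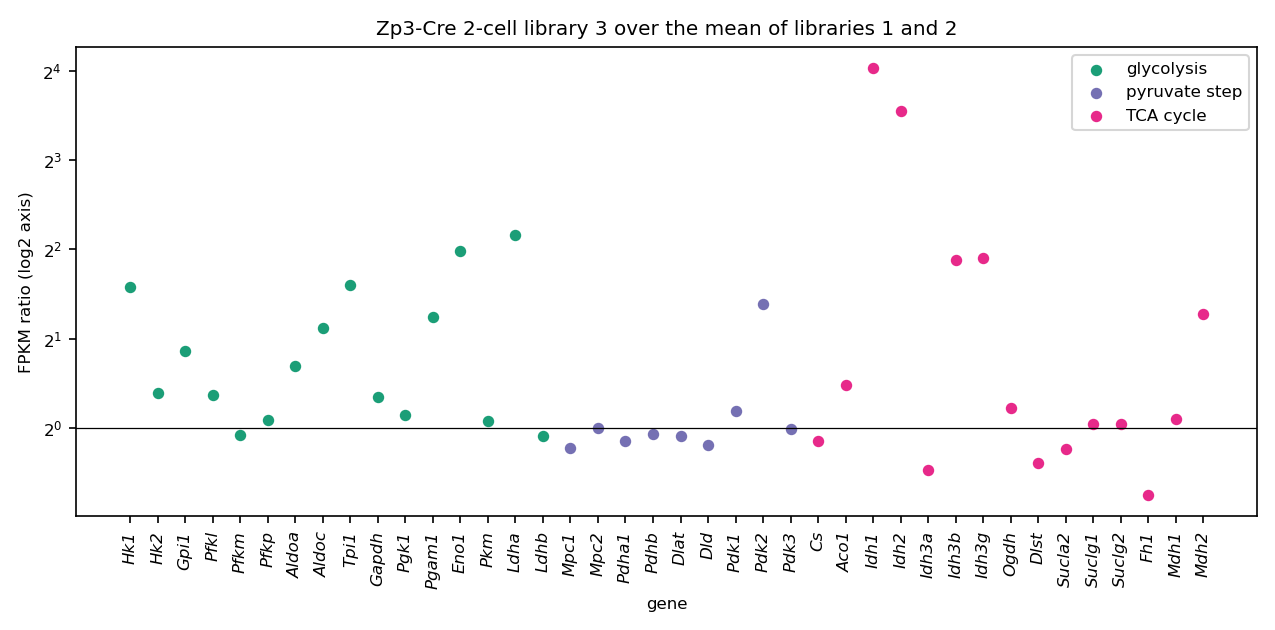
FPKM of the third deletion 2-cell library divided by the mean of the other 2 (y axis, log2 axis) for the 40 genes (x axis), coloured by class, with a line at 1. Idh1 (16.3), Idh2 (11.7), Ldha (4.46) and Eno1 (3.94) are highest, while the 9 pyruvate-step genes other than Pdk2 lie between 0.859 and 1.15.

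The Zp3-Cre effect differed between 2-cell embryos and zygotes for 21 members, more positive in 11 and more negative in 10, beside 21.5% and 32.4% of all genes. Fh1 (1.57 ± 0.24 SE, adjusted p = 1.61e-05), Sucla2 (1.43 ± 0.15 SE, adjusted p = 1.62e-07), Mdh1 (1.37 ± 0.17 SE, adjusted p = 7.82e-07) and Ldhb (1.34 ± 0.12 SE, adjusted p = 1.42e-08) had the largest positive differences among the called members. Mpc2 (-3.61 ± 0.41 SE, adjusted p = 3.41e-07), Mdh2 (-3.54 ± 0.39 SE, adjusted p = 2.32e-07) and Pdhb (-2.01 ± 0.15 SE, adjusted p = 1.43e-09) turned from higher in zygotes to lower in 2-cell embryos, although Pdhb in zygotes was at -0.13 under median-of-ratios scaling. Pgam1 had -1.12 ± 0.40 (SE, adjusted p = 0.024). Without the third deletion library 12 were more positive and 17 more negative. The split was 13 and 8 under median-of-ratios scaling and 12 and 6 under quantile normalization.

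Genes of the same pathways outside the 40 were followed in 6 further lists. Each count of theirs stands beside the shares of all genes called higher and lower, which were 18.3% and 11.3% in 3-week deletion oocytes, 34.2% and 15.2% in 3-month deletion oocytes, 35.3% and 11.4% in deletion zygotes and 37.1% and 29.4% in deletion 2-cell embryos. Of the pyruvate and TCA genes, 17 of 21 were tested: 3 were higher and 0 lower in 3-week deletion oocytes, 4 and 1 in 3-month deletion oocytes, 8 and 5 in deletion zygotes and 10 and 4 in deletion 2-cell embryos. At 3 weeks that is 17.6% higher, near the share of all genes. Sdhd and Sdhc, membrane subunits of succinate dehydrogenase, were called higher in zygotes: Sdhd had 2.04, 1.12 and 3.23 FPKM in wild-type and 29.3, 33.95 and 16.2 in deletion zygotes (3.13 ± 0.26 SE, adjusted p = 5.06e-09), and Sdhc had 3.96, 5.68 and 7.17 against 42.5, 37.7 and 31.7 (2.56 ± 0.16 SE, adjusted p = 6.59e-11). Pdp2, a phosphatase that switches pyruvate dehydrogenase on, went from 1.68, 1.52 and 1.42 in wild-type zygotes to 58.3 and 58.5 in wild-type 2-cell embryos and stood at 1.97, 2.77 and 1.32 in deletion 2-cell embryos (-4.33 ± 0.19 SE, adjusted p = 3.69e-13). In the oocyte and zygote libraries the highest value of Pdp2 was 1.68 FPKM.

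Of 9 tested glycolysis isozymes outside the members (16 listed), 0 were higher and 1 lower in 3-week deletion oocytes, 0 and 0 at 3 months, 1 and 1 in deletion zygotes and 3 and 0 in deletion 2-cell embryos. Bpgm, which makes 2,3-bisphosphoglycerate, was the most abundant, with 928, 964 and 918 FPKM in 3-week wild-type oocytes, 1482, 1471 and 1367 in wild-type zygotes and 171 and 149 in wild-type 2-cell embryos. Its fold change was -0.26 ± 0.09 (SE, adjusted p = 0.033) in 3-week deletion oocytes and 1.32 ± 0.10 (SE, adjusted p = 7.87e-10) in deletion 2-cell embryos. Of 9 glycolysis regulators, 2 were higher and 2 lower in 3-week deletion oocytes, 3 and 2 at 3 months, 4 and 2 in zygotes and 3 and 3 in 2-cell embryos. Hif1a, a transcription factor that activates glycolysis genes in low oxygen, was lower in Gdf9-Cre oocytes, with 41.9, 39.3 and 40.5 against 18.6, 19.1 and 18.99 (-1.06 ± 0.10 SE, adjusted p = 6.72e-08), and higher in deletion 2-cell embryos, with 4.62 and 6.45 against 30.5, 37.1 and 35.8 (2.45 ± 0.11 SE, adjusted p = 3.87e-13). Pfkfb3, which makes an activator of phosphofructokinase, had 8.795 and 10.5 against 1.52, 1.02 and 2.16 in 2-cell embryos (-2.08 ± 0.17 SE, adjusted p = 2.45e-09).

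Among 8 tested glucose and monocarboxylate transport genes (10 listed), 2 were higher and 0 lower in 3-week deletion oocytes, 4 and 0 at 3 months, 3 and 0 in deletion zygotes and 3 and 3 in deletion 2-cell embryos. The share higher was 37.5% in zygotes and in 2-cell embryos, near that of all genes (35.3% and 37.1%). Slc16a1, a lactate and pyruvate carrier, had 6.08, 4.54 and 4.94 FPKM in wild-type and 19.6, 18.98 and 19.7 in deletion zygotes (1.73 ± 0.12 SE, adjusted p = 2.62e-10). Slc2a3, a glucose transporter, differed by the age of the GV oocytes, with 3.72, 3.81 and 3.99 in wild type at 3 weeks and 0.0854, 0.0412 and 0.0307 at 3 months (-2.20 ± 0.12 SE, adjusted p = 6.31e-10); the deletion oocytes had 2.81, 3.297 and 3.53 against 0, 0.0954 and 0.253. Of 9 tested pentose phosphate genes (10 listed), 2 were higher and 2 lower in 3-week deletion oocytes, 3 and 2 at 3 months, 2 and 3 in zygotes and 3 and 4 in 2-cell embryos. G6pdx, the entry enzyme of that pathway, had 310.5, 296 and 297 in wild-type and 202, 196 and 187 in deletion oocytes at 3 weeks (-0.62 ± 0.13 SE, adjusted p = 0.0016) and was lower in deletion zygotes too (-1.14 ± 0.13 SE, adjusted p = 6.29e-07). Of 10 shuttle genes, 2 were higher and 0 lower, 3 and 1, 4 and 1, and 4 and 4 in the same order of comparisons. Slc25a11, the mitochondrial oxoglutarate carrier, had 12.6 and 16.4 in wild-type and 2.57, 2.31 and 4.64 in deletion 2-cell embryos (-1.92 ± 0.22 SE, adjusted p = 2.37e-07).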

How the data were processed

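RNA was measured in 23 libraries of mouse oocytes and embryos. The authors deposited 1 table of FPKM values per gene with a column for each sample. Library preparation used the NEBNext Ultra RNA chemistry, per the labels' protocols. Per the submitters' processing notes, TopHat2 2.0.12 and Cufflinks 2.2.1 were among the tools, and the builds mm10 and mm9 are both named, so no gene coordinates are taken from the table's build. For strand handling and the gene annotation, the sources used here give nothing.

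From the deposited FPKM, log2(FPKM + 1) was computed, a gene was kept where 2 or more libraries had an FPKM of 1 or above, and limma 3.58.1 (R 4.3.3; lmFit with 8 group means, eBayes with trend, 15 residual degrees of freedom) was fitted to 13776 genes, with Benjamini-Hochberg adjustment over all of them in each of 10 comparisons. The procedure was tested on simulated data. No 2 columns were identical. Depth in counts is unknown; relative depth came from the most frequent ratio between libraries of values under 0.2 FPKM. Alternatives were a pseudocount of 0.1, no filter, a filter at 5 FPKM, median-of-ratios scaling, quantile normalization and array weights. Others were a fit on the compared groups alone, a replicate block and leaving out each library in the comparisons with its group.

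Genes were named by rule: per deletion comparison up to 5 members called in each direction with the largest change and a mean of at least 5 FPKM (up to 4 in other comparisons), members at regulated steps and up to 3 genes of each further list; other members are named to account for all 40, chosen after their values were seen. The members, lists and rules were chosen with earlier results of these data known, so no p-value is given for a list. Promoters are from RefSeq (GRCm38.p6), read for 39 of the 40 genes at 1 listed start each. 1 gene of the further lists is not reported here.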

Additional observations from a re-analysis of the deposited data

Results flagged for a closer look

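A test of the difference between 2 deletion effects singled out the results below; each value is the difference on the log2(FPKM + 1) scale, with limma and Benjamini-Hochberg adjustment over all genes, and no explanation was weighed. Between the Gdf9-Cre effect at 3 months and the Zp3-Cre effect at 3 weeks, Pdk3 differed by 0.697. Between the Zp3-Cre effects in zygotes and in 3-week GV oocytes, the difference was positive for Dld (2.33), Pdha1 (1.69), Aco1 (1.67), Idh3a (1.53), Mdh2 (1.30), Dlat (1.28), Ldhb (1.15), Fh1 (0.825), Ogdh (0.806), Dlst (0.545) and Cs (0.374). It was negative for Pdk3 (-0.74), Pfkp (-0.567) and Suclg2 (-0.538).

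Between the Zp3-Cre effects in 2-cell embryos and in zygotes, the difference was positive for Fh1 (1.57), Sucla2 (1.43), Mdh1 (1.37), Ldhb (1.34), Suclg1 (1.18), Dlst (1.08), Dld (0.988), Dlat (0.874), Suclg2 (0.841), Cs (0.617) and Pfkm (0.534). It was negative for Mpc2 (-3.61), Mdh2 (-3.54), Idh3g (-2.55), Pdhb (-2.01), Idh3b (-1.43), Pgam1 (-1.12), Pdha1 (-0.867), Pgk1 (-0.829), Pkm (-0.782) and Ogdh (-0.553). The 2 stage differences share the zygote effect, so they are not independent of each other.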

How the results depend on the processing

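Counts of members called stayed within 1.5 times of the reported ones in the other settings, except as follows. In 3-week deletion oocytes median-of-ratios scaling gave 9 called members against 15. Between wild-type ages, against 0, there were 1 with a pseudocount of 0.1, 8 with array weights and 9 in a fit on the compared groups alone. For the difference between the GV models, against 1, there were 2 with a pseudocount of 0.1, 0 with median-of-ratios scaling, 8 with array weights and 8 on the compared groups alone, and 0 to 2 when 1 library was left out. Leaving out 1 library gave 13 to 14 called members in 3-week deletion oocytes, 17 to 19 at 3 months, 23 to 26 in zygotes, 25 to 31 in 2-cell embryos, 0 to 0 between wild-type ages, 27 to 31 for wild-type zygotes against oocytes, 29 to 33 for wild-type 2-cell embryos against zygotes, and 12 to 15 and 20 to 29 for the stage differences.

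These fold changes of called members turned in sign. In deletion zygotes Pdhb was at -0.13 and Pdk3 at -0.24 with median-of-ratios scaling, and Pdk3 at -0.10 with quantile normalization. In wild-type zygotes against oocytes, Gapdh was at 0.43, Pgk1 at 0.51, Dlat at 0.064 and Sucla2 at 0.19 with median-of-ratios scaling, and Pgk1 at 0.58, Dlat at 0.28 and Suclg1 at 0.12 with quantile normalization. In wild-type 2-cell embryos against zygotes, Pfkm was at -0.38, Pdha1 at -0.25 and Idh3a at -0.25 with quantile normalization, and Idh3a at -0.021 with median-of-ratios scaling. In the stage differences, Cs was at -0.12 for zygotes with median-of-ratios scaling and Ogdh at 0.12 for 2-cell embryos with quantile normalization. The all-gene median moved under these scalings by -0.18 and -0.22 in 3-month deletion oocytes, -0.26 and -0.29 in deletion zygotes, and 0.44 and 0.55 in wild-type zygotes; beyond such shifts the cause was not tested.

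Samples of the same number did not deviate together: the correlations of their deviations from the group means were -0.069 to 0.058. With so few libraries per group, this check cannot decide whether equal numbers share an animal or a batch. With the replicate block 15, 21, 26 and 26 members were called in the 4 deletion comparisons, 0, 30 and 33 in the wild-type comparisons, and 1, 15 and 21 in the differences.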
